A study of Mus musculus with 32 samples.

Results

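Open chromatin was described around 6 mouse genes: Nodal, its inhibitors Lefty1 and Lefty2, its co-receptor Tdgf1, the related ligand Gdf3, and Fgf4, a fibroblast growth factor of early embryonic cells. Peaks were taken from all 15 deposited peak lists where the centre of the peak lay in the gene or within 50 kb of it, and a peak in more than 1 window was counted once. Over all lists this gave 133 distinct sites of 276187 in all. The windows held 23 sites for Nodal, 30 for Lefty1, 28 for Lefty2, 20 for Tdgf1, 27 for Gdf3 and 24 for Fgf4, and 19 sites lay in the windows of both Lefty genes.

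ATAC-seq, in which a transposase inserts sequencing adapters into accessible DNA, was applied to 32 samples of mouse embryonic fibroblasts and of cells undergoing reprogramming with the OSKM factors Oct4, Sox2, Klf4 and c-Myc. The fibroblasts are named OG2-MEFs, which carry a GFP transgene driven by regulatory DNA of the Oct4 gene Pou5f1. Each of 15 groups had 1 deposited list of 400 bp intervals without heights, so no value has a replicate check, and depth is unknown. Nothing in the labels says that samples of a group came from separate cultures. The control shRNA (labelled shLuci) and the CTCF shRNA groups were each taken at day 0 (2 samples), as Thy1+ cells (3 samples, days 3, 6 and 9), as SSEA1-Thy1- cells (2 samples, days 6 and 9), as SSEA1+ cells (2 samples, days 6 and 9) and as GFP+ cells (2 samples, day 12). The sorted cells were reprogrammed with a doxycycline-inducible OSKM lentivirus. Further groups of 2 samples were unsorted cells at day 10 with OSKM and either an overexpression control, CTCF overexpression, or Smarca5 shRNA on top of CTCF overexpression, and unsorted cells at day 12 with control or Smarca5 shRNA. Thy1 is a fibroblast surface protein, SSEA1 an early surface marker of reprogramming, CTCF a DNA-binding protein of domain borders, and Smarca5 the ATPase of ISWI chromatin remodellers.

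Nodal is a ligand of the TGF-beta family that signals through activin receptors and Smad2 and Smad3, and needs an EGF-CFC co-receptor such as Tdgf1 (Cripto). Lefty1 and Lefty2 are targets of the pathway that bind Nodal or its co-receptor and hold it in check, while Gdf3 is a family member that acts with Nodal in the early embryo. Fgf4 is a target of Oct4 and Sox2 and activates ERK signalling in embryonic stem cells, where all these genes serve as marks of the undifferentiated state.

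The promoters of Fgf4, Tdgf1 and Nodal are shown because the other members had no entry in the promoter table. Their peak patterns differed. The Fgf4 promoter lay under a peak in 14 of 15 lists. In the control lists the Tdgf1 promoter lay just beside a site that was absent early and present late. The Nodal promoter lay between neighbouring sites. Each sequence is the reference sequence of RefSeq (GRCm38.p6) that ends 1 base before the gene's start, written 5′ to 3′ on the strand of the gene. Capitals mark a GC box (GGGCGG), a KLF motif (GGGNGTGG) or TATATA, each searched on both strands, and these 3 motifs were chosen after the sequences were seen. Fgf4 is chr7:144861136-144861385 (plus strand), Tdgf1 is chr9:110946159-110946408 (minus strand) and Nodal is chr10:61417722-61417971 (plus strand). Of the 6 genes 3 matched an entry of the promoter table.
Fgf4: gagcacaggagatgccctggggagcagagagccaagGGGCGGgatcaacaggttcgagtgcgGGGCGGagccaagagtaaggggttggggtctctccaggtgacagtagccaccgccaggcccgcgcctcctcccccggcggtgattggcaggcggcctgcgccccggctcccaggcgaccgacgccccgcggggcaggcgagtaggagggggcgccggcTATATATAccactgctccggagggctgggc
Tdgf1: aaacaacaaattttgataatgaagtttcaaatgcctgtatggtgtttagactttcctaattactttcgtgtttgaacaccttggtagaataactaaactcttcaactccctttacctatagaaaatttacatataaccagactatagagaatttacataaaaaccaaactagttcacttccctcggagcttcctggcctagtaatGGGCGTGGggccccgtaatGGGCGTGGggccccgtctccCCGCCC
Nodal: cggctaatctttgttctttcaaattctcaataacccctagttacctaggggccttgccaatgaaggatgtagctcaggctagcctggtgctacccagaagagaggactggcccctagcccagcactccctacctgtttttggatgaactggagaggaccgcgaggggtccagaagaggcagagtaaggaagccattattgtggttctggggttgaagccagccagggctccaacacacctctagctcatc

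The Fgf4 sequence was 71.2% G or C, against a median of 52.4% over 32851 promoters, and held GC boxes 214 and 188 bases before the start and a pair of overlapping TATATA matches at 30 and 28 bases. The Tdgf1 sequence was 42% G or C and held KLF motifs at 45 and 26 bases and a GC box on the other strand at 6 bases before the start. The Nodal sequence was 53.2% G or C and matched none of these letters. A GC box was found in 32.7% of all promoters, the KLF motif in 15.9% and TATATA in 5.25%. None of the 3 sequences held an octamer (ATGCAAAT, in 1.60% of all promoters), a Sox motif (ACAATG, 10.7%), an Oct-Sox composite motif (0.0639%), an AP-1 motif (TGANTCA, 6.75%), a CTCF core motif (0.295%), an ESRRB motif (CAAGGTCA, 1.33%) or a FOXH1 motif (AATCCACA, 0.718%), which says only that these letters are not in these windows.

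The shortest list had 43618 peaks (day 12 control) and the longest 213386 (Thy1+, CTCF shRNA). Peak positions came in 3 sets (day 0 and sorted cells, day 10, day 12). Within a set 44.0% to 95.6% of positions were identical between lists, and between sets 0.664% to 0.887% were. Pairs of lists were therefore compared within a set only. Statements that a site was held or absent across sets rest on an overlap of at least 1 bp and are given as description. The part of the different peak positions in such presence or absence was not tested. The labels were followed by marker genes in the control lists. Peaks around 10 fibroblast genes went from 201 at day 0 to 80 in GFP+ cells, where Prrx1, Col3a1, Postn and Fap no longer had a start peak, while peaks around 10 pluripotency genes went from 66 to 125 and all 10 had a start peak. The SSEA1+ list with CTCF shRNA held 210 peaks around the fibroblast genes, against 114 in its control. The whole list was also longer, with 183640 peaks against 135749. Peaks around keratinocyte (35 against 22), endothelial (39 against 26) and blood genes (36 against 23) rose as well. So did those around pluripotency (106 against 99), endoderm or trophoblast (59 against 45) and neural genes (41 against 37). These numbers are not scaled by list length. After subtraction of the log2 ratio of whole lists, the median log2 ratio was 0.42 for fibroblast genes. It was 0.15 for keratinocyte, 0.20 for endothelial and 0.34 for blood genes. For pluripotency genes it was -0.40, for endoderm or trophoblast -0.27 and for neural genes -0.33, beside -0.17 for all genes. The part of these differences in the results of that pair was not tested. A peak present in part of the cells and a weak peak in all of them cannot be told apart in these lists.

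Along the control lists the 6 genes kept most of their peaks while the lists as a whole shortened from Thy1+ cells on. Together they had 68 distinct peaks at day 0, 91 among Thy1+ cells, 85 among SSEA1-Thy1- cells, 80 among SSEA1+ cells and 88 among GFP+ cells. Per 100000 peaks of the list this was 44.2, 46.8, 56.2, 58.9 and 96.3. The share therefore was highest in GFP+ cells, and the number was not. From day 0 to GFP+ cells the ratio of their peaks, on the log2 scale and after subtraction of the ratio of whole lists (called relative log2 here), was 1.13, with an exact Clopper-Pearson 95% interval of 0.65 to 1.60 that covers counting error over peaks only. That interval treats the peaks of both lists as separate draws, though some sites were in both. All 6 genes had a positive value, from 0.83 for Lefty2 to 1.34 for Tdgf1, and the median of all protein-coding genes was 0.52.

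**Figure D1:**
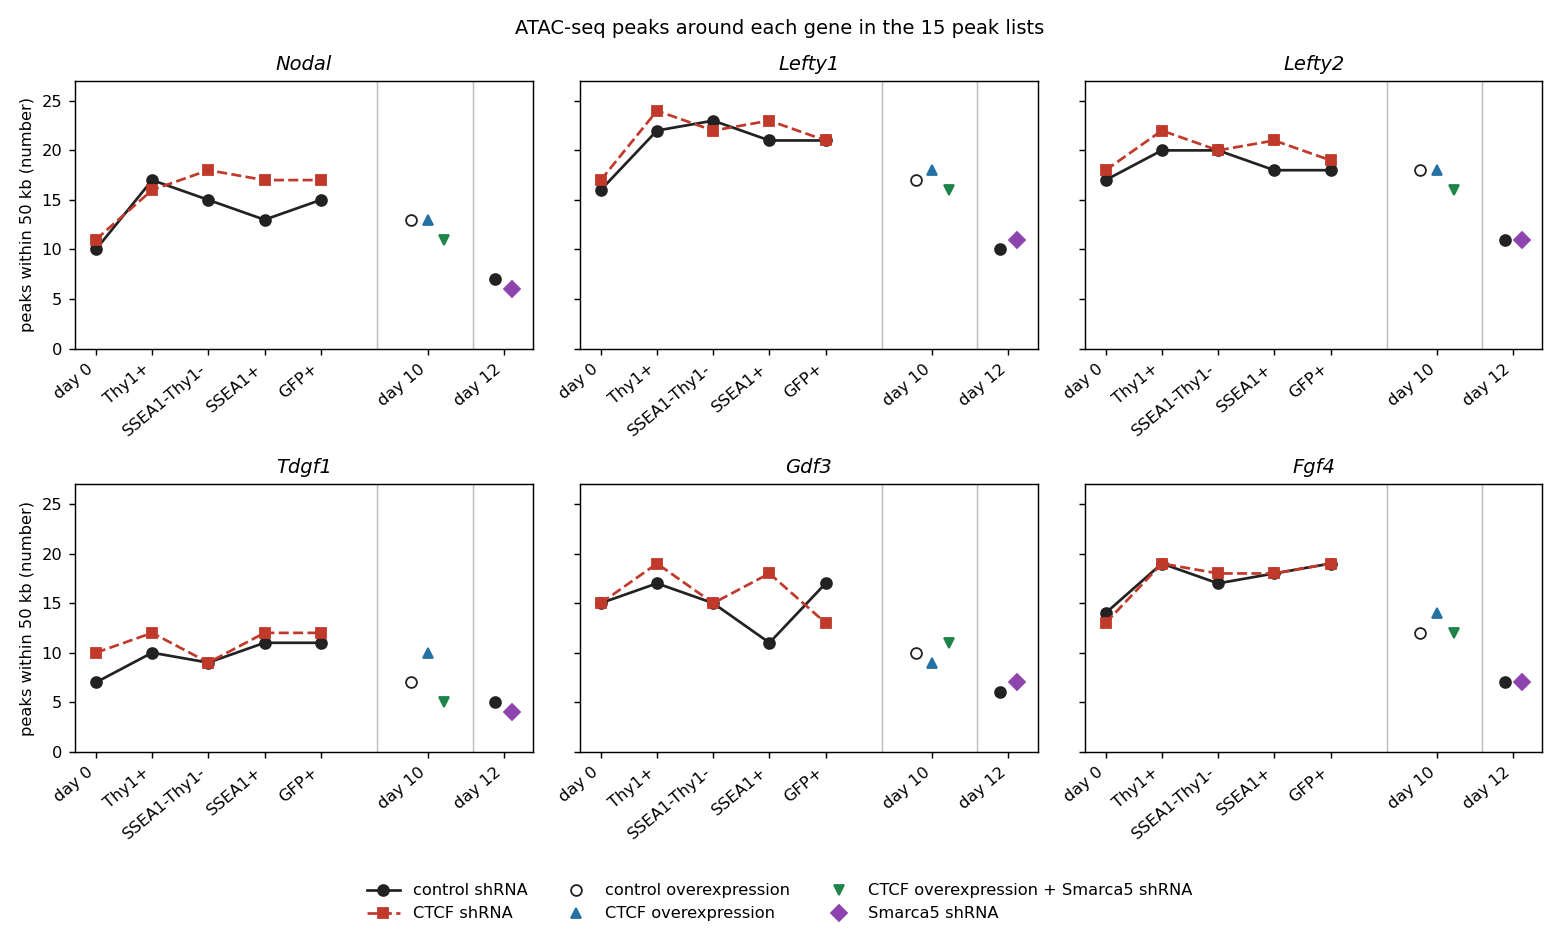
Number of peaks in or within 50 kb of each gene (vertical axis) in each of the 15 lists (horizontal axis), 1 point per list, so there are no error bars; grey lines separate lists whose peak positions come from different sets. Black and red points of 1 population lie close for most genes, and the widest gap is at Gdf3 in SSEA1+ cells (11 against 18).

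Of the 107 sites of the 6 genes in the day 0 or the GFP+ control list, 39 (36.4%) were in the GFP+ list only and 19 (17.8%) in the day 0 list only. Over the whole genome these shares were 21.2% and 53.3%. These are called opening and closing sites, and the other 49 were in both. Nodal had 8 opening and 3 closing sites, Lefty1 9 and 4, Lefty2 6 and 5, Tdgf1 7 and 3, Gdf3 8 and 6, and Fgf4 7 and 2. Opening sites thus outnumbered closing ones at each gene, while closing sites outnumbered opening ones over the genome. Start peaks, within 1 kb of the gene's start or, where the table gives no strand (Lefty1, Lefty2, Gdf3), of either gene end, were gained at Lefty1 and Tdgf1 and lost at none, where 3.98% of all genes gained one and 3.49% lost one. In all 5 control lists were 43 of 120 sites of the 6 genes (35.8%), against 16% of all sites.

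The opening sites did not appear in 1 step. In the control lists 48.7% of the 39 opening sites were already held in Thy1+ cells, 66.7% in the SSEA1-Thy1- list and 64.1% in the SSEA1+ list, and over all opening sites of the genome 49.6%, 58.7% and 64.1%. The Thy1+ control list held 6 of 8 opening sites of Nodal, 6 of 9 of Lefty1 and 4 of 6 of Lefty2. It held 3 of 8 of Gdf3 and 3 of 7 of Fgf4. Tdgf1 had the lowest share there, with 1 of 7 in the Thy1+ list, 2 in the SSEA1-Thy1- list and 4 in the SSEA1+ list. Of the 19 closing sites, the same lists still held 17 (89.5%), 5 (26.3%) and 2 (10.5%). Over all closing sites of the genome the shares were 79.5%, 28.9% and 15.1%.

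**Figure D2:**
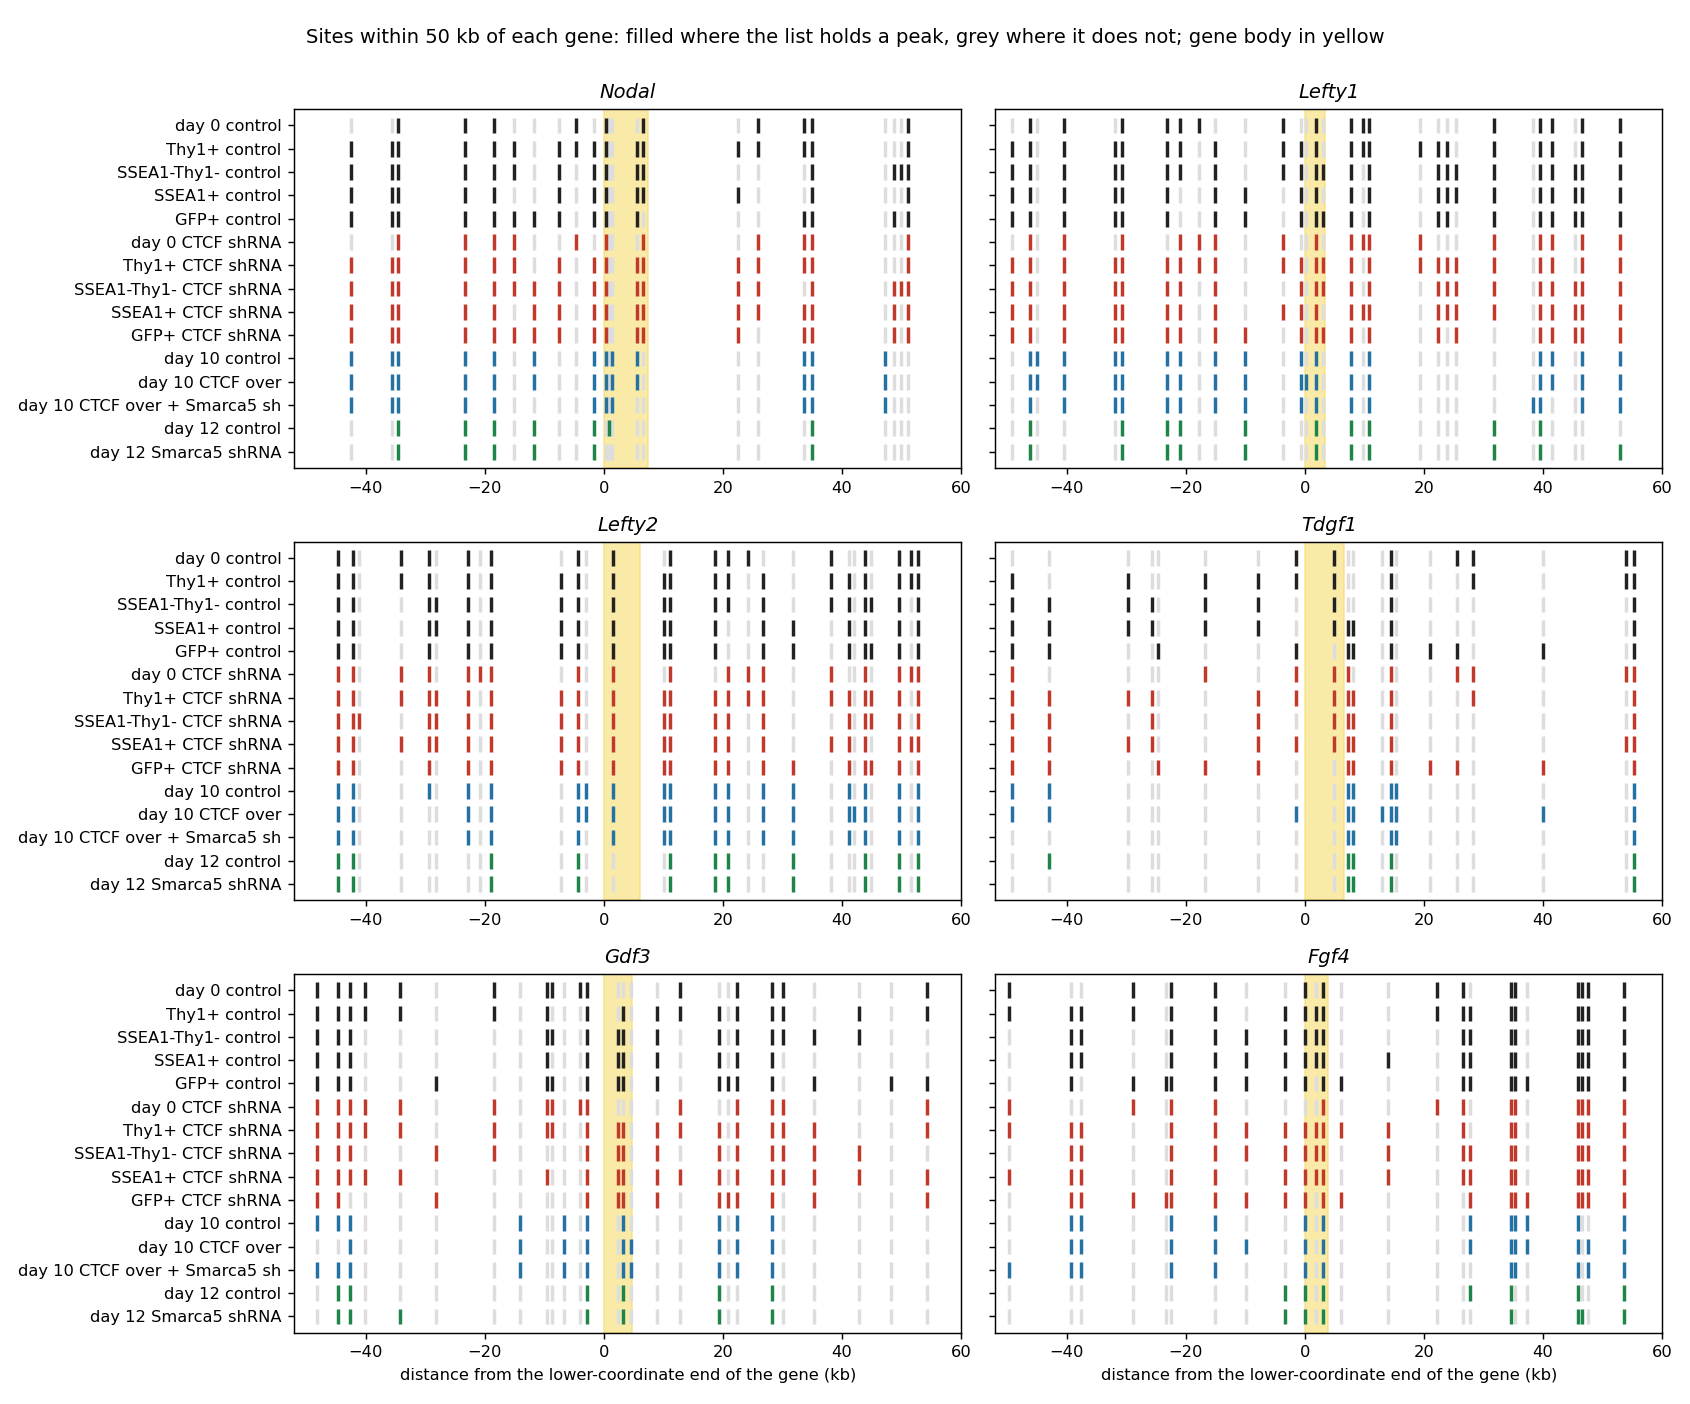
Each panel shows the sites around 1 gene at their distance in kb from the lower-coordinate end of the gene (horizontal axis) and the 15 lists (vertical axis); a coloured bar is a peak held by the list (black control shRNA, red CTCF shRNA, blue day 10, green day 12), a grey bar a site the list lacks, and the yellow band the gene. In the Tdgf1 panel the 2 sites just right of the gene are grey in the first 3 control lists, while 1 of them is filled in all 5 lists with CTCF shRNA and the other in 4.

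Nodal, the ligand, lies at chr10:61417972-61425338 on the plus strand. Its window held 10, 17, 15, 13 and 15 peaks in the control lists from day 0 through Thy1+, SSEA1-Thy1- and SSEA1+ to GFP+ cells. With CTCF shRNA the numbers were 11, 16, 18, 17 and 17 in the same order. The day 0 lists were the lowest in both series, and the sorted lists overlapped. A site just inside the gene, centred 0.4 kb after its start, was in all 10 of these lists and in the 3 of day 10. It was thus held in fibroblasts, and it lay within 1 kb of the start without covering it. A site 1.7 kb before the start (chr10:61415878-61416626) was absent from both day 0 lists and held by the other 13. Sites 42.5 kb and 35.5 kb before the start had the same split over the day 0, sorted and day 10 lists. Sites 7.6 kb before the start and 5.5 kb after it, inside the gene, opened in the same way over the sorted lists, and the first of them was in none of the day 10 and day 12 lists. A site 4.7 kb before the start closed after Thy1+ cells, and 1 in the gene, 6.7 kb after the start, was absent from GFP+ control cells only among the control lists. The window also holds parts of Pald1 and the gene Eif4ebp2, at whose starts 4 of the 23 sites lay.

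Lefty1 and Lefty2, the inhibitors, are neighbours at chr1:180935022-180938401 and chr1:180893108-180899107. The Lefty1 window held 16, 22, 23, 21 and 21 peaks in the control lists from day 0 to GFP+ cells, and 17, 24, 22, 23 and 21 with CTCF shRNA. The Lefty2 window held 17, 20, 20, 18 and 18, and 18, 22, 20, 21 and 19. Both were lowest at day 0, and the values of the sorted lists lay within 4 peaks of each other. A site 0.7 kb below the lower end of Lefty1 (chr1:180934065-180934523) was absent from both day 0 and both day 12 lists and held by the other 11. A site within Lefty1 (chr1:180936719-180937133) was in all 15. Between the genes, 10.1 kb from Lefty1, a site (chr1:180924662-180925182) was held by SSEA1+ and GFP+ control cells, by GFP+ cells with CTCF shRNA and by all day 10 and day 12 lists, and was lost with CTCF shRNA in SSEA1+ cells. Lefty2 had no peak within 1 kb of either end in any list, and its 1 site inside the gene was in all lists but those of day 12. A site 7.2 kb below Lefty2 opened and was held by all sorted lists of both shRNAs.

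Tdgf1, the co-receptor, lies at chr9:110939608-110946158 on the minus strand and had the fewest distinct sites of the 6. Control lists held 7, 10, 9, 11 and 11 peaks from day 0 to GFP+ cells, and lists with CTCF shRNA 10, 12, 9, 12 and 12. The site beside its promoter (chr9:110946523-110947281, centred 744 bp before the start) was absent from the day 0, Thy1+ and SSEA1-Thy1- control lists and held by the SSEA1+ and GFP+ control lists. With CTCF shRNA it was held in all 5 populations. A second site, 1.5 kb before the start (chr9:110947337-110948044), had the same pattern in the controls and was held with CTCF shRNA in all populations but day 0. Both were in all day 10 and day 12 lists. The start peak was therefore gained with CTCF shRNA in 3 pairs: day 0, where 0.58% of all genes gained one, Thy1+ (1.74%) and SSEA1-Thy1- (1.57%). Inside the gene, a site 1.7 kb after the start went the other way, held in all control lists but that of GFP+ cells and in the same 4 populations with CTCF shRNA.

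Gdf3, the Nodal-related ligand, lies at chr6:122605403-122610087 beside Apobec1 and Dppa3. The control lists held 15, 17, 15, 11 and 17 peaks from day 0 to GFP+ cells, and the CTCF shRNA lists 15, 19, 15, 18 and 13. It was the gene whose numbers differed most between shRNAs, with 7 more peaks in SSEA1+ cells and 4 fewer in GFP+ cells. A site inside the gene (chr6:122608317-122608865) was absent from both day 0 lists and held by the other 13, and another inside the gene was held from SSEA1-Thy1- cells on in the controls and already in Thy1+ cells with CTCF shRNA. A site 4.2 kb above the gene was in all sorted lists and in no other. Sites 4.0 kb below and 8.1 kb above the gene closed, and the second of these was held again in SSEA1+ cells with CTCF shRNA. The lower end of Dppa3, itself a germ cell and stem cell gene, was covered in the GFP+ lists only.

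Fgf4 lies at chr7:144861386-144865245 on the plus strand, between Fgf3 and Fgf15. Control lists held 14, 19, 17, 18 and 19 peaks from day 0 to GFP+ cells and CTCF shRNA lists 13, 19, 18, 18 and 19. These pairs differed by at most 1 peak. The site over its start (chr7:144861077-144861615), which covers the promoter shown above, was in every list but that of day 0 with CTCF shRNA, 1 of 179 genes (0.818%) that lost a start peak in that pair. A site 3.06 kb after the start (chr7:144864218-144864682), inside the gene, was in all 15 lists. Near the gene, sites 3.3 kb and 9.9 kb before the start and 6.0 kb after it opened, the last of them in GFP+ control cells alone among the controls. The start of Fgf3 had a second site, 23.4 kb before the start of Fgf4, in both GFP+ lists and no other.

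Across all lists, 21 of the 133 sites (15.8%) were held by all 15, where 7.77% of all sites were, and 8 of these 21 lay within 1 kb of the start or end of another gene. Among the control lists of day 0 and sorted cells, 10 of 120 sites of the 6 genes (8.33%) were seen in GFP+ cells only, against 4.46% of all sites. Of these, 1 was at Nodal, 3 at Tdgf1, 3 at Gdf3 and 3 at Fgf4. The Lefty windows held none. The largest number of window peaks in the control lists was 23, at Lefty1 in SSEA1-Thy1- cells, and the medians of all genes were 11, 14, 12, 11 and 9 from day 0 to GFP+ cells. In GFP+ cells each of the 6 genes was above that median, and Tdgf1, with 11, was the closest to it.

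With CTCF knockdown the number of peaks around the 6 genes differed by less than its counting interval once the length of the lists was taken into account. With CTCF shRNA they had 73, 97, 89, 95 and 87 distinct peaks from day 0 to GFP+ cells. The relative log2 was 0.096 for the day 0 pair (95% interval -0.40 to 0.59), -0.042 for the Thy1+ pair (-0.47 to 0.39) and -0.049 for the SSEA1-Thy1- pair (-0.49 to 0.40). It was -0.19 for the SSEA1+ pair (-0.63 to 0.26) and -0.20 for the GFP+ pair (-0.64 to 0.25). Each interval includes 0. The intervals treat the peaks of both lists as separate draws, though most sites of each pair were in both. They therefore do not measure the spread of a change, and no conclusion on a change is drawn from them.

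**Figure D3:**
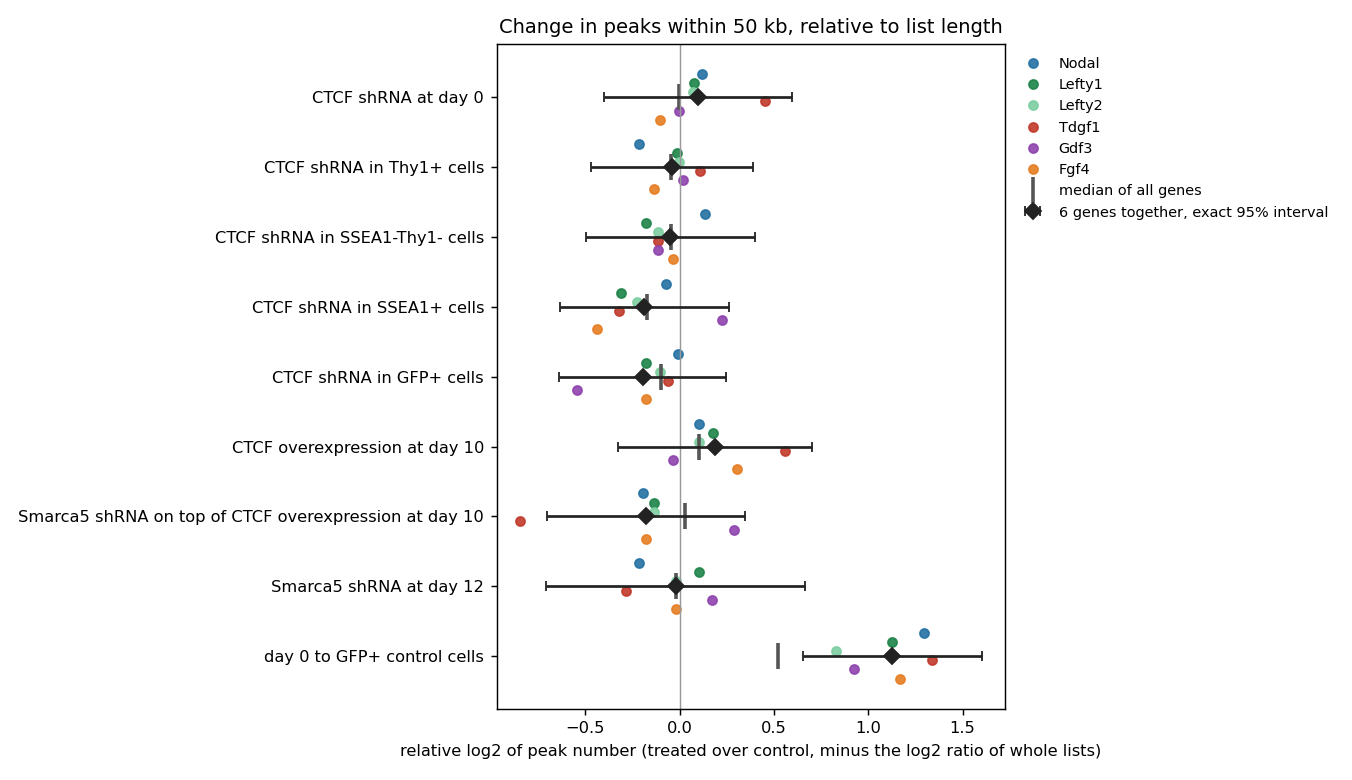
Relative log2 of the number of peaks (horizontal axis; 0 is the change of the whole list) for the 9 pairs of lists (vertical axis), with a diamond and exact 95% counting interval for the 6 genes together, a coloured point for each gene and a grey bar for the median of all protein-coding genes. The day 0 to GFP+ pair, at 1.13, is the only one whose interval excludes 0. The intervals treat the peaks of both lists as separate draws, though many sites are shared.

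By gene, the mean relative log2 over the 5 populations was -0.0096 (SD 0.14, n = 5 pairs) for Nodal and -0.12 (SD 0.15) for Lefty1. It was -0.075 (SD 0.11) for Lefty2, 0.012 (SD 0.29) for Tdgf1 and -0.084 (SD 0.28) for Gdf3. The median of all genes was -0.062, and from 28.1% (Lefty1) to 74.3% (Tdgf1) of all genes had a lower mean than these 5. Fgf4 was lowest, at -0.18 (SD 0.15), and below 0 in 5 of 5 pairs, where 16.2% of all genes were below 0 in all 5 and 0.612% above. In a sign-flip permutation test (exact, two-sided) over the 5 pairs, run on 20573 genes, Fgf4 had p = 0.0625, the smallest this design can give and shared by 3455 genes (Benjamini-Hochberg adjusted p = 0.372). With windows of 20 kb Fgf4 was not below 0 in every pair, and its mean was -0.17 (exact permutation p = 0.375). The other members had an exact p of 0.188 (Lefty1, Lefty2), 0.688 (Gdf3) and 0.938 (Nodal, Tdgf1), with adjusted p of 0.595, 0.907 and 0.992. Of all genes 0 passed 0.05 with or without adjustment, which 5 pairs cannot reach. The signs for Nodal, Tdgf1 and Gdf3 were not stable. Without the Thy1+ pair, the means were 0.042 for Nodal and -0.012 for Tdgf1, without the day 0 pair -0.098 for Tdgf1, without the SSEA1+ pair 0.0063 for Nodal, and without the GFP+ pair 0.031 for Gdf3.

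Individual sites differed between the lists of each pair, and with 1 list per group no such difference was tested. At day 0, 2 of 75 sites were lost and 7 gained (9.33%), where 4.24% and 4.65% of all sites were. Tdgf1 took 3 of the 7 and Fgf4, Lefty1 and Lefty2 the 2 losses, since 1 lost site lay in both Lefty windows. In Thy1+ cells 8 of 105 were lost and 14 gained (13.3%), against 6.95% and 15.2%, and in SSEA1-Thy1- cells 5 of 94 were lost and 9 gained (9.57%), against 7.46% and 14.6%. In SSEA1+ cells 3 of 98 were lost and 18 gained (18.4%), against 5.58% and 30.2%, and in GFP+ cells 8 of 95 were lost and 7 gained (7.37%), against 11.2% and 21.6%. In the 4 sorted populations the share gained was thus below that of all sites, and only at day 0 was it above. These shares rest on few sites. Sites in all 5 control lists, 35.8% near the 6 genes against 16% of all, cannot count as gained, and their part was not tested. Start peaks of the 6 genes neither appeared nor vanished in SSEA1+ cells, where 2.69% of all genes gained one and 0.955% lost one, or in GFP+ cells (1.36% and 0.909%), and none was lost in Thy1+ (0.695%) or SSEA1-Thy1- cells (0.982%).

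Gdf3 led the gains in SSEA1+ cells with 7 of the 18. Of these 18 gained sites 11 (61.1%) were closing sites, present in the day 0 and not in the GFP+ control list, and over the genome 73.4% of gained sites of this pair were. Of the 19 closing sites of the 6 genes, the SSEA1+ list held 13 (68.4%) with CTCF shRNA and 2 (10.5%) with control shRNA, and over all closing sites 55.6% and 15.1% were held. The fibroblast markers moved in the same list, as given above, and their part was not tested. In Thy1+ cells, by contrast, the opening sites differed: 26 of 39 (66.7%) were held with CTCF shRNA and 19 (48.7%) with control shRNA, and over all opening sites 65.6% and 49.6%. Tdgf1 accounted for 3 of this net gain of 7, with 4 of 7 opening sites held against 1.

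**Figure D4:**
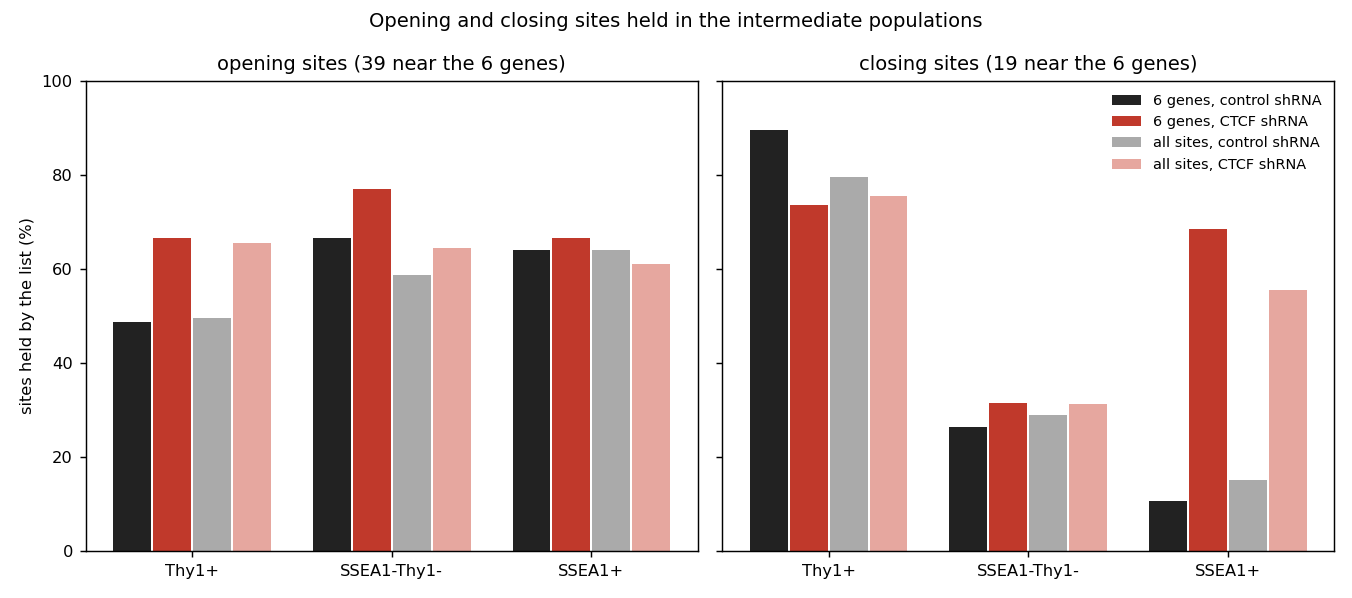
Share of opening sites (left) and closing sites (right) held by the lists of the 3 intermediate populations, in percent (vertical axis), for the 6 genes (dark bars) and for all sites of the genome (pale bars), with control (black, grey) and CTCF shRNA (red, pink); each bar is 1 list, without error bars. The closing sites in SSEA1+ cells show the widest gap, 68.4% against 10.5% for the 6 genes.

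Sites that differed repeatedly between the lists of a pair were few. In 2 or more of the 5 populations 10 of 122 sites (8.20%) were gained with CTCF shRNA, where 10.6% of all sites were, and 3 (2.46%) were lost, where 2.12% were. Without the SSEA1+ pair, 6 were gained and 3 lost, against 4.63% and 1.37% of all sites. Tdgf1 had 3 of the 10: the sites 744 bp and 1.5 kb before its start, and 1 lying 16.8 kb below the gene that was gained at day 0 and in GFP+ cells and lost in the 3 populations between. Nodal had 3, at 11.7 kb before its start and 22.5 kb and 25.8 kb after it. The first of these was in GFP+ cells alone among the control lists and in SSEA1-Thy1-, SSEA1+ and GFP+ cells with CTCF shRNA. The Lefty region had 2, at 21.0 kb below and 21.9 kb above Lefty1, Gdf3 had 1 at 30.7 kb above it and Fgf4 1 at 13.9 kb after its start. The repeated losses besides that of Tdgf1 were a pair of sites 9.6 kb and 8.6 kb below Gdf3, in Apobec1, both lost in SSEA1-Thy1- and GFP+ cells.

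With CTCF overexpression at day 10 the 6 genes had 68 peaks, against 64 in the control, a relative log2 of 0.19 (95% interval -0.33 to 0.70), and the median of all genes was 0.10. Of 71 sites 3 were lost (4.23%) and 7 gained (9.86%), where 15.3% and 9.22% of all sites were. Tdgf1 went from 7 to 10 peaks and Fgf4 from 12 to 14, Lefty1 from 17 to 18, Nodal and Lefty2 stayed at 13 and 18, and Gdf3 went from 10 to 9. A site at the higher end of Gdf3 (chr6:122609783-122610182) was gained, where 1.22% of all genes gained such a peak and 0.8% lost one, and a site over the lower end of Lefty1 (chr1:180934987-180935386) appeared in this list alone of the 15. The Gdf3 losses were 44.7 kb and 48.2 kb below the gene.

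Smarca5 shRNA on top of CTCF overexpression was compared with CTCF overexpression alone, the list that also served in the previous pair. The 6 genes had 59 peaks against 68, a relative log2 of -0.18 (95% interval -0.71 to 0.35), with a median of 0.027 over all genes. Of 72 sites 13 were lost (18.1%) and 4 gained (5.56%), where 15.7% and 14.1% of all sites were. Tdgf1 had 5 of the 13 losses and went from 10 peaks to 5, with a relative log2 of -0.85. Of the 5, 3 were in the CTCF overexpression list alone among the day 10 lists. These lay 6.4 kb and 33.4 kb before the start and 1.6 kb below the gene. They count as gains in the previous pair and as losses here by construction, since the pairs share that list. The other 2, at 43.0 kb and 49.2 kb below the gene, were also in the control list. Both sites before the Tdgf1 start stayed. Nodal went from 13 to 11, and 1 of its lost sites lay in the gene, 5.5 kb after the start. Fgf4 went from 14 to 12, Lefty1 and Lefty2 from 18 to 16, and Gdf3 from 9 to 11, where its 2 distant sites were held again. The end site of Gdf3 was held with Smarca5 shRNA too. No member lost its start peak, where 2.81% of all genes did and 0.617% gained one.

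Over the 3 day 10 lists, 53 of 73 sites of the 6 genes (72.6%) were in all 3, where 62.5% of all day 10 sites were. In the control and CTCF overexpression lists but not with Smarca5 shRNA were 8 of the 73, against 9.2%, and in the CTCF overexpression list alone 5 (6.85%), against 5.54%. Of the 73 sites 10 were in none of the 10 lists of day 0 and sorted cells. Among them were 1 in Nodal 1.3 kb after its start, 1 lying 8.8 kb before the start of Tdgf1 and 1 lying 6.8 kb below Gdf3. The same share over all sites was not computed, and those lists belong to another set of peak positions. These sites are therefore not read as particular to day 10 or to these genes.

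At day 12 the unsorted lists held 38 peaks of the 6 genes with either shRNA, a relative log2 of -0.022 (95% interval -0.71 to 0.67). Of 41 sites 3 were lost (7.32%) and 3 gained (7.32%), where 5.05% and 6.47% of all sites were. The start site of Nodal, here centred 0.9 kb after the start, was held by the control and not with Smarca5 shRNA, where 0.704% of all genes lost a start peak and 0.443% gained one. Nodal thus went from 7 to 6 peaks, Tdgf1 from 5 to 4, Lefty1 from 10 to 11 and Gdf3 from 6 to 7, while Lefty2 (11) and Fgf4 (7) had equal numbers. Both sites before the start of Tdgf1 and the start site of Fgf4 were held in either list.

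Other genes of these pathways were followed from a list of 22 Nodal pathway genes (receptors, Smads, processing enzymes, inhibitors and targets) and 20 FGF pathway genes. Start peaks were present at 19 of the 22 Nodal pathway genes at day 0 and 21 in GFP+ cells, gained at Cer1, a secreted Nodal inhibitor, and T (Brachyury), a target. Over all genes, 67.4% had a start peak at day 0 and 67.9% in GFP+ control cells, and 61.1% to 70.5% over the 15 lists. With CTCF shRNA, Cer1 gained one in Thy1+ cells and T in SSEA1-Thy1- cells, and none of the 22 lost one in any of the 9 pairs. All 20 FGF pathway genes had a start peak in every list. Between the day 0 and GFP+ control lists, the median relative log2 was 0.66 for the Nodal and 0.57 for the FGF list, beside 0.52 for all genes and values of 0.83 to 1.34 for the 6 members.

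Genes with the most similar window numbers over the 10 lists of day 0 and sorted cells were taken from 18538 genes by Pearson's r, given as a description since all genes share the lists and their lengths. For Tdgf1 they were Sppl2b (r = 0.931), Psg22 and Tbk1, and only 3 genes had an r over 0.9. Gdf3 had 14 such genes, led by Znfx1 (0.926), Dusp9 and Gm17660. Nodal had 185, among them Smg5 (0.967) and Mthfd1, and Lefty2 had 287, led by Cbr2 (0.991), Gm21992 and Rac3. Fgf4 had 430, led by Mgat5b (0.992), Pipox and Gngt2, and Lefty1 had 934, led by Epb41l4a (0.996), Tph2 and Tex101. The patterns of Tdgf1 and Gdf3 were thus shared by the fewest genes.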

How the data were processed

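The deposited files are 15 lists of peak intervals, 1 for each group of samples. The values used were interval start and end positions (BED), as deposited by the authors. MACS2, Picard, SAMtools, Bowtie2, cutadapt, Trim Galore and FastQC are the tools, and GRCm38 and mm10 the builds, per the submitters' processing notes. Tool versions and roles, the peak threshold, any shift of reads for transposase binding and the way samples were pooled remain not given in the sources used here. In every list the score column is 0 throughout, so peaks have no height or p-value, and no depth is known. A list from deeper libraries can hold more peaks.

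Overlapping intervals of a list were merged, and sites were shared at an overlap of at least 1 bp. Windows used 21883 protein-coding genes of RefSeq (GRCm38.p6), of which 17491 had a strand. Per gene, 1 peak was added to both numbers before log2. With 1 list per group no test was made within a pair. No genome of the build was used, so motifs were searched in promoters in place of sites. Alternatives were windows of 20 kb and 100 kb, unmerged intervals, another scaling, a pseudocount of 0.5, an overlap of 200 bp and leaving out pairs. Python 3.11.15, numpy 2.4.6, pandas 2.3.3 and scipy 1.17.1 were used.

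The 6 genes and the gene lists were chosen with earlier results of these data known. All 6 genes are named in each comparison. Sites are named when near a start, opening or closing close to the gene, changed in 2 or more CTCF shRNA pairs, or changed within 10 kb at day 10 or day 12. Other sites were picked after their values were seen. The genes alike are the 3 with the highest r, at least 1000 kb from any member and with at least 5 peaks in 1 list. Some items that these rules would name are not reported here.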

Additional observations from a re-analysis of the deposited data

Results flagged for a closer look

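With CTCF shRNA the Gdf3 window gained 7 peaks in SSEA1+ cells and lost 4 in GFP+ cells, a difference in relative log2 of 0.77 between the populations. It was picked out because the changes go in opposite directions, and the difference was not tested, since each population has 1 list per shRNA. Changes of 2 or more in opposite directions in these pairs were seen at 1129 of 20379 genes (5.54%). The SSEA1+ list with CTCF shRNA is the one that also held more peaks around fibroblast genes (210 against 114). It was longer as a whole too (183640 peaks against 135749).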

How the results depend on the processing

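No paired analysis was possible because each group has 1 deposited list and replicate numbers have no columns; this concerns pairing by replicate number, and the 5 CTCF shRNA pairs are lists matched by population. The relative log2 of the 6 genes together stayed within its counting interval in 36 of 36 alternatives. That interval is wide and does not measure the spread of a change, so no conclusion is drawn from this count. The sign turned in 1 of them, CTCF shRNA in Thy1+ cells at 20 kb (0.015 in place of -0.042). From day 0 to GFP+ cells the value was 1.13, and it was 1.18 at 20 kb, 0.83 at 100 kb and 0.96 scaled by the peaks of all gene windows. With CTCF shRNA in SSEA1+ cells it was -0.30 at 20 kb in place of -0.19. Of the alternatives for the means per gene over the 5 CTCF shRNA pairs, 51 kept the sign and 9 turned it: Nodal at 20 kb (0.063), at 100 kb (0.015) and scaled by the peaks of all gene windows (0.0053), Tdgf1 at 100 kb (-0.019), and the left-out pairs. Leaving out pairs gave Nodal -0.045 to 0.042, Tdgf1 -0.098 to 0.095 and Gdf3 -0.16 to 0.031. At 20 kb the sites counted as gained fell to 9 in Thy1+ and 7 in SSEA1+ cells with CTCF shRNA, 0 with Smarca5 shRNA at day 10 and at day 12, and 23 from day 0 to GFP+ cells. Those counted as lost fell to 4 in Thy1+ and 3 in GFP+ cells with CTCF shRNA, 0 with CTCF overexpression, 7 and 1 with Smarca5 shRNA at day 10 and day 12, and 12 from day 0 to GFP+ cells. The smaller window holds fewer sites by construction. Without the SSEA1+ pair, added after seeing the data, sites gained in 2 or more pairs were 6 in place of 10. An overlap of 200 bp moved no count of gained or lost sites by more than 1.5 times. Unknown depth and the lack of replicate lists limit every value.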
